A study of Ovis aries with 6 samples.

Results

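KIT, its ligand KITLG and 5 genes that mark mast cells or act in them (MS4A2, FCER1A, HDC, CPA3 and GATA2) were followed through the choroid plexus of ewes, the tissue whose epithelium secretes cerebrospinal fluid. The 7 genes were taken by symbol from the 33609 genes of the deposited count table, and all 7 were found. The set was selected on earlier results from these same pools, in which the counts of KIT were lower after thyroidectomy and those of MS4A2 differed in the same direction. The differences of the 7 genes between thyroidectomised ewes and the other groups are therefore given as a description, with no test.

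PolyA RNA was sequenced from control ewes kept in short days (Short), control ewes kept in long days (Long) and thyroidectomised ewes kept in long days (THX). Each group gave 2 pools of RNA from 3 to 4 ewes, out of 8 ewes per group and 7 in the THX group. The sources used here do not state the ewes' age, breed or hormone levels, nor the interval since surgery. All values are of whole tissue, in which fewer cells of a type and less RNA per cell cannot be told apart.

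KIT is the receptor tyrosine kinase for stem cell factor, the product of KITLG, and in adult tissue mast cells keep it on their surface and need it to survive. Melanocytes, germ cells, blood progenitors and some epithelial and endothelial cells can carry it too, so KIT alone does not identify a mast cell. MS4A2 and FCER1A encode the beta and alpha subunits of the high-affinity IgE receptor, HDC makes histamine, CPA3 is a carboxypeptidase stored in mast cell granules, and GATA2 is a transcription factor of mast cells that endothelial cells also use. Mast cells are known to lie in the connective tissue of the choroid plexus.

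Total counts per pool ran from 48282883 to 82100653, and levels are given as CPM, read counts relative to library totals scaled by TMM factors. On a principal component analysis of the 18019 genes with enough counts to be tested, Short pool 1 and THX pool 2 lay at opposite ends of the first component and THX pool 1 lay at one end of the second. The epithelial markers put the tissue as labelled, with a summed level of 13 listed genes, TTR foremost, of 95340 to 101100 CPM in Short, 116100 to 117900 CPM in Long and 127100 to 149500 CPM in THX pools. The labels do not say how ewes were assigned to pools, and p-values reflect how far pools differ rather than single ewes. An exact permutation test of 2 pools against 2 cannot reach the threshold, so tests come from the model fitted across all genes.

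The receptor KIT (identifier 780504) had the lowest levels in the THX pools and the highest in the Short pools. It stood at 57.4 and 50.3 CPM in the Short pools, 37.6 and 35.7 CPM in the Long pools, and 15.4 and 10.5 CPM in the THX pools. Every Short pool lay above every Long pool, and every Long pool above both THX pools. The order Short above Long above THX without overlap was met by 3.86% of all tested genes. These levels rest on 696 counts in the poorest pool and 4857 in the richest, so that counting error is small. The 95% exact Poisson intervals of the THX pools, 14.4 to 16.5 CPM and 9.72 to 11.3 CPM, do not overlap each other. The THX pools thus differed from one another by more than counting error.

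**Figure D1:**
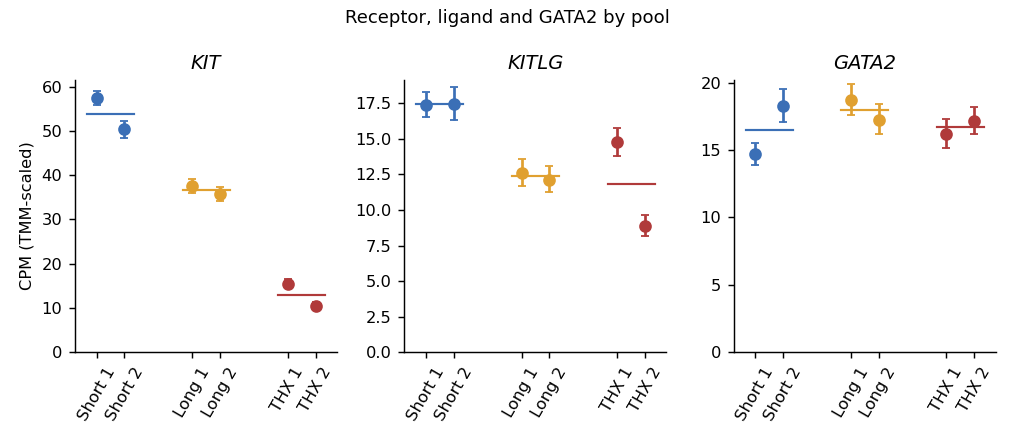
Levels of KIT, KITLG and GATA2 in each of the 6 pools, in CPM on linear axes that start at 0; points are pools, bars are 95% exact Poisson intervals that cover counting error only, and horizontal lines are group means. KIT is highest in Short and lowest in THX pools without overlap, KITLG is highest in the Short pools with the THX pools far apart, and the 3 groups of GATA2 lie at similar levels.

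KIT averaged 53.9 ± 5.03 (SD, n = 2) CPM in Short, 36.6 ± 1.30 (SD, n = 2) CPM in Long and 12.9 ± 3.48 (SD, n = 2) CPM in THX pools. The THX mean was 2.83-fold below the Long mean, a log2 difference of −1.50 (SE 0.176). It was 4.16-fold below the Short mean, a log2 difference of −2.06 (SE 0.178). Genes called lower by edgeR made up 0.233% of all tested genes in THX against Long pools and 0.599% in THX against Short pools, comparisons that share the THX pools. KIT is among them in both, which is how it came to be chosen, and nothing is read from it here. Against Long pools the log2 difference was −1.50 without Short pool 1 or 2, −1.47 without Long pool 1 and −1.54 without Long pool 2. Against Short pools it was −1.96 without Short pool 1. With only the 4 pools compared, the log2 differences were −1.50 and −2.05. KIT was called in some alternative fits and not in others, and nothing is read from that either.

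Day length with the thyroid in place is a contrast that leaves out the THX pools, although it shares the Long pools with the one that chose the genes. KIT was 1.47-fold higher in Short than Long pools and did not pass (log2 difference of Long minus Short −0.56, SE 0.170, adjusted p = 0.342 by edgeR's quasi-likelihood test). Over 14 alternatives this log2 difference stayed between −0.65 and −0.46, with adjusted p from 0.092 to 0.871. No gene of the 18019 passed in this contrast (0% called), while 2486 had an unadjusted p below 0.05. By DESeq2 158 genes passed, without KIT among them, and by limma-voom 0. Long pools lay wholly below Short pools in 26.8% of all tested genes, as they did for KIT, so this kind of separation is common here.

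KITLG (identifier 443371), the ligand, was highest in the Short pools like its receptor, but its Long and THX pools overlapped. It stood at 17.4 and 17.4 CPM in the Short pools, 12.6 and 12.1 CPM in the Long pools, and 14.8 and 8.89 CPM in the THX pools. The THX pools lay on either side of the Long pools and both below the Short pools. The group means were 17.4 ± 0.0189, 12.4 ± 0.331 and 11.8 ± 4.16 (SD, n = 2 each) CPM. The log2 difference of THX minus Long was −0.07 (SE 0.222), and it became −0.48 without THX pool 1 and 0.26 without THX pool 2. That of THX minus Short was −0.56 (SE 0.221), with values of −0.97 without THX pool 1 and −0.23 without THX pool 2.

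Between the day lengths KITLG was 1.41-fold higher in Short than Long pools, without passing (log2 difference of Long minus Short −0.49, SE 0.221, adjusted p = 0.372 by edgeR). KIT and KITLG had log2 differences of like size in this contrast, −0.56 and −0.49, and neither passed. In THX against Long their log2 differences were −1.50 and −0.07, and this gap between receptor and ligand was not tested.

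**Figure D2:**
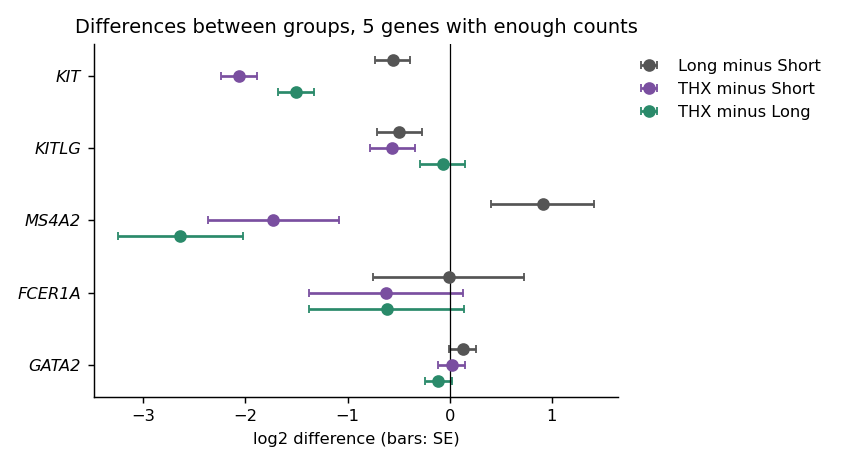
Log2 differences between groups for the 5 members with enough counts to be tested, with bars for the SE derived from the edgeR F statistic. The 3 colours are the 3 comparisons. KIT lies at −2.06 and −1.50 in the comparisons of THX pools and at −0.56 between day lengths, MS4A2 has the widest span with SEs of over 0.5, and GATA2 lies near 0 in all 3.

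The subunits of the IgE receptor had few counts. MS4A2 (identifier 443203), the beta subunit that strengthens the receptor's signal, was counted 13 and 6 times in the Short pools, 13 and 16 times in the Long pools, and 2 and 3 times in the THX pools. Its levels were 0.154 and 0.120 CPM in Short, 0.232 and 0.294 CPM in Long, and 0.0352 and 0.0452 CPM in THX pools. Both THX pools lay below the other 4 pools, and both Long pools lay above the Short pools. MS4A2 reached the filter on low counts only through the 2 Long pools, where it was highest.

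On summed counts MS4A2 was at 5 in THX and 29 in Long pools, a ratio of scaled levels of 0.155 with a 95% exact interval of 0.0467 to 0.404. Against the 19 counts of the Short pools the THX ratio was 0.288 (0.0840 to 0.797). These intervals cover counting error only. The fitted log2 differences were −2.64 (SE 0.612) for THX minus Long and −1.73 (SE 0.643) for THX minus Short. Between day lengths the fitted log2 difference of Long minus Short was 0.91 (SE 0.507), given with no test because MS4A2 entered the fit only through the Long pools.

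FCER1A (identifier 100144427), the subunit that binds IgE, stood at 0.331 and 0.458 CPM in the Short pools, 0.571 and 0.202 CPM in the Long pools, and 0.0880 and 0.407 CPM in the THX pools. The groups overlapped in every comparison. Pools of 1 group differed more than group means did, with counts of 32 and 11 in Long and of 5 and 27 in THX pools. The log2 difference of THX minus Long was −0.62 (SE 0.761), and became 0.31 and −1.18 on omission of Long pool 1 or Long pool 2, and 0.07 and −2.11 on omission of THX pool 1 or THX pool 2. Between day lengths the log2 difference was −0.01 (SE 0.742, adjusted p = 0.998 by edgeR). Dendritic cells can carry FCER1A as well, and the summed level of 8 dendritic cell markers ran from 35.3 to 36.9 CPM in Short, 37.7 to 39.2 CPM in Long and 33.3 to 34.7 CPM in THX pools.

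HDC (identifier 101108052), which makes histamine from histidine, had too few counts to be tested. It was counted 8 and 7 times in the Short pools, 12 and 8 times in the Long pools, and 2 and 6 times in the THX pools. The levels were 0.0946 and 0.139 CPM, 0.214 and 0.147 CPM, and 0.0352 and 0.0904 CPM. Both THX pools lay below the other 4, and the Poisson interval of THX pool 2 (0.0332 to 0.197 CPM) takes in the levels of both Short pools. On summed counts, 8 in THX against 20 in Long pools, the ratio was 0.358 with a 95% exact interval of 0.137 to 0.850. Against 15 counts in Short pools it was 0.583 (0.214 to 1.47). Both intervals cover counting error only and are not read as a test.

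CPA3 (identifier 101123173), a protease of mast cell granules, was at the limit of detection in every pool. It had 1 and 0 counts in Short, 3 and 2 in Long, and 2 and 2 in THX pools. The pool without a count allows up to 0.0735 CPM by its Poisson interval, which is above the level of every other pool. The ratio of THX to Long pools was 0.717 with a 95% exact interval of 0.142 to 3.33. A difference in CPA3 was not detectable at this depth.

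**Figure D3:**
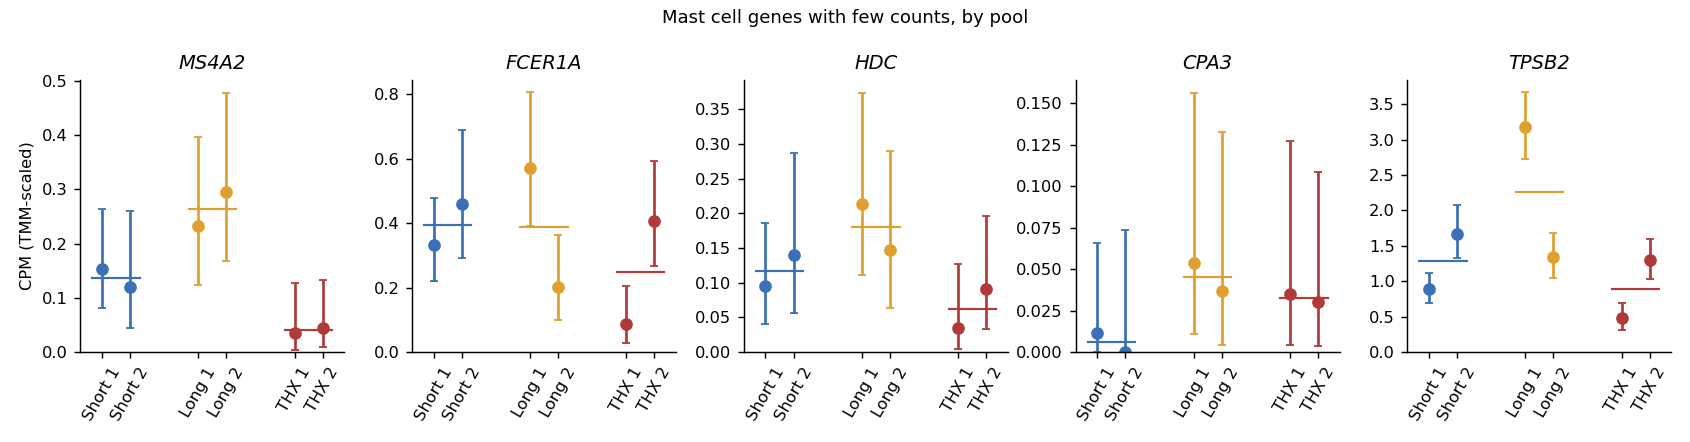
Levels of MS4A2, FCER1A, HDC, CPA3 and the tryptase TPSB2 in each pool, in CPM on linear axes that start at 0; points are pools, bars are 95% exact Poisson intervals for counting error and lines are group means. MS4A2 and HDC are lowest in both THX pools, FCER1A and TPSB2 spread widely within the Long and THX groups, and CPA3 intervals overlap throughout.

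GATA2 (identifier 101113282) stood at 14.7 and 18.3 CPM in the Short pools, 18.7 and 17.3 CPM in the Long pools, and 16.2 and 17.2 CPM in the THX pools. Both THX pools lay just below the Long pools, and the Short pools took in the whole range of the THX pools. The log2 difference of THX minus Long was −0.11 (SE 0.132). That of THX minus Short was 0.02 (SE 0.132) and turned to −0.08 when libraries were scaled by their totals alone. Between day lengths it was 0.13 (SE 0.132, adjusted p = 0.667 by edgeR). The 12 endothelial markers, a further cell type that uses GATA2, had summed levels of 788 to 973 CPM in Short, 824 to 879 CPM in Long and 838 to 840 CPM in THX pools.

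Both THX pools lay below both Long pools for 5 of the 7 members (KIT, MS4A2, HDC, CPA3 and GATA2), where 18.7% of all tested genes did. For CPA3 and GATA2 the gap was within counting error or under 1 SE. Against Short pools the THX pools were wholly lower for KIT, KITLG, MS4A2 and HDC and wholly higher for CPA3, where 26.7% of tested genes were wholly lower. The members were chosen with these values known, so their counts are not read against the background. Between day lengths 3 log2 differences of the 5 tested members were below 0 and 2 above. MS4A2, above 0, entered the fit only through the Long pools, and FCER1A, below 0, was at −0.01. No shared or opposed direction is read from these signs.

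The level of KIT was set beside the defining mast cell markers that were listed apart from it, MS4A2, CPA3, HDC, FCER1A, TPSAB1, TPSB2 and CMA1. Of these 7, 6 were matched, and CMA1 was matched through its synonym in the reference annotation to LOC101107261, a chymase gene with at most 4 counts in a pool. Their summed level was 1.50 and 2.45 CPM in the Short pools, 4.26 and 2.02 CPM in the Long pools, and 0.704 and 1.93 CPM in the THX pools. The THX pools lay below the Long pools in this sum, by little for THX pool 2, and the Short pools overlapped both groups, whereas no groups overlapped for KIT. KIT was highest in the Short pools, and the marker sum was highest in Long pool 1. The contribution of mast cell number to the KIT difference was not tested.

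TPSB2, a mast cell tryptase, made up most of that sum. It stood at 0.887 and 1.67 CPM in the Short pools, 3.18 and 1.34 CPM in the Long pools, and 0.475 and 1.30 CPM in the THX pools. THX pool 1 was the lowest of the 6, and THX pool 2 lay close to Long pool 2. The log2 difference of THX minus Long was −1.34 (SE 0.601, adjusted p = 0.583 by edgeR), without passing. Tryptases are a family of near-identical genes, so reads may be split between copies and this level is uncertain.

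Of the other mast cell genes, a list of 26, 22 were matched and 18 had enough counts. None passed by edgeR in THX against Long pools, and 14 were below and 4 above 0 with a median log2 difference of −0.23, beside a median of 0.00 and 49.7% below 0 for all tested genes. SRGN, the proteoglycan core that packs mast cell granules and those of other blood cells, was at 21.1 and 25.3 CPM in Short, 28.1 and 26.9 CPM in Long, and 18.8 and 21.8 CPM in THX pools (log2 difference of THX minus Long −0.44, adjusted p = 0.320 by edgeR). ENPP3, a surface enzyme of mast cells and basophils, had a log2 difference of −1.83 (SE 0.602, adjusted p = 0.411 by edgeR). That value rests on 32 and 26 counts in Long and 8 and 10 in THX pools. The THX levels, 0.141 and 0.151 CPM, lay below the 0.176 CPM of the filter on low counts. CSF2RB, the shared receptor chain for interleukin-3, interleukin-5 and GM-CSF, was at −0.46 (adjusted p = 0.525). MITF, a transcription factor of mast cells and melanocytes, lay in the other direction at 0.29 (adjusted p = 0.548). Between day lengths the 18 had a median of 0.19 with 11 above 0, and in THX against Short a median of −0.03 with 9 on each side.

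**Figure D4:**
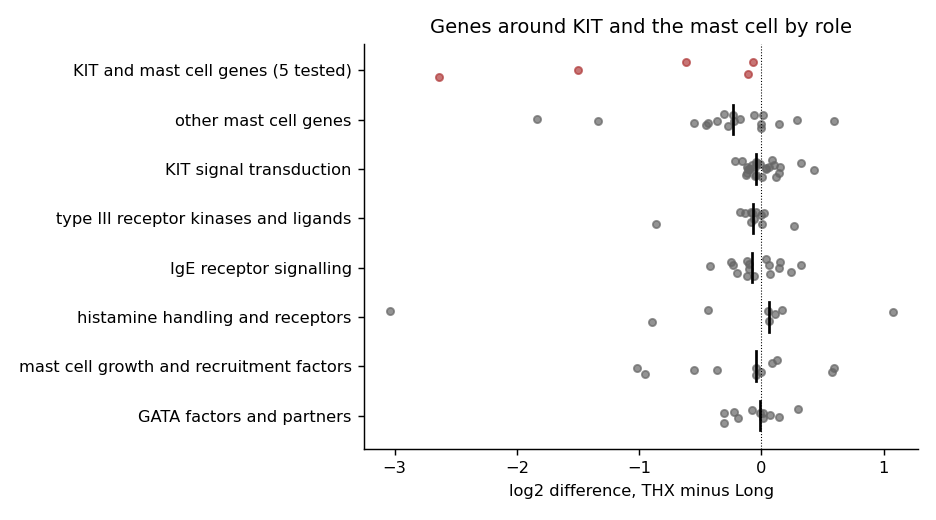
Log2 differences of THX minus Long pools for the 5 tested members and for the tested genes of 7 lists around KIT and the mast cell; each point is a gene, its height within a row is arbitrary, and black marks are list medians. KIT and MS4A2 lie at −1.50 and −2.64, while list medians run from −0.23 to 0.06 and edgeR called no gene of the 7 lists (DESeq2 called IL33).

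All 26 listed genes that carry the signal inside the cell from KIT were tested, and none passed in any of the 3 comparisons by edgeR. DESeq2 called 3 of the 26 in THX against Short (SHC1, PTPN11 and SH2B2), beside 9.55% of all tested genes. The median log2 difference of the 26 was −0.04 in THX against Long, −0.09 in Long against Short and −0.09 in THX against Short. The kinase LYN was at 35.5 and 33.7 CPM in Long and 39.5 and 46.9 CPM in THX pools (log2 difference 0.32, adjusted p = 0.393). SHC1, an adaptor that links receptor kinases to RAS, was at 144 and 138 CPM in Long and 122 and 120 CPM in THX pools (log2 difference −0.22, adjusted p = 0.408). The adaptor SH2B2 was at 5.16 and 5.04 CPM in Long and 6.35 and 7.37 CPM in THX pools (log2 difference 0.43, adjusted p = 0.483). Its log2 difference of THX minus Short was 0.79 (adjusted p = 0.0742 by edgeR).

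KIT belongs to the type III receptor tyrosine kinases, and genes of that family and its relatives stand beside it on the chromosome. In the sheep annotation of assembly ARS-UI_Ramb_v3.0, used for gene order alone, KDR is the next protein-coding gene on one side of KIT, and PDGFRA lies beyond LOC114115410 on the other. PDGFRA, a platelet-derived growth factor receptor of fibroblasts, had a log2 difference of THX minus Long of −0.08 (adjusted p = 0.906) and of THX minus Short of −0.41 (adjusted p = 0.0796 by edgeR). KDR, the main endothelial receptor for VEGF, was at 0.02 and −0.22 in these comparisons (adjusted p = 0.988 and 0.193). LOC114115410 was at 0.05 and 0.35 (adjusted p = 0.986 and 0.267). None of these neighbours passed by edgeR in either comparison. DESeq2 called PDGFRA in THX against Short, where it called 9.55% of all tested genes. The values of KIT were −1.50 and −2.06, and the gap between KIT and its neighbours was not tested.

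All 12 listed type III receptors, relatives and ligands were tested, and edgeR called none in any comparison. DESeq2 called PDGFRA alone of the 12 in THX against Short, beside 9.55% of all tested genes. Their median log2 difference of THX minus Long was −0.07, with 9 below 0. CSF1R, the macrophage growth factor receptor, was at 76.0 and 73.7 CPM in Long and 64.7 and 72.0 CPM in THX pools (log2 difference −0.13, adjusted p = 0.805 by edgeR). IL34, a ligand of that receptor, was at 0.27 (adjusted p = 0.647). FLT3, a receptor of blood progenitors and dendritic cells, had about 1 CPM and a log2 difference of −0.86 (SE 0.620, adjusted p = 0.808).

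The 16 genes of signalling from the IgE receptor, shared with other immune cells, had a median log2 difference of −0.08 in THX against Long pools and none passed by edgeR. FCER1G, the gamma chain that FCER1A and other Fc receptors share, was at 16.9 and 18.9 CPM in Short, 22.9 and 22.7 CPM in Long, and 19.9 and 23.8 CPM in THX pools. The THX pools lay on either side of the Long pools, where those of MS4A2 lay below. PRKCB, a protein kinase C, had a log2 difference of THX minus Long of −0.23 and GAB2, an adaptor of mast cell signalling, of 0.15 (adjusted p = 0.526 and 0.731 by edgeR). In THX against Short PRKCB was at −0.43 (adjusted p = 0.0819 by edgeR). DESeq2 called PRKCB and ITPR1 of the 16 in that comparison, beside 9.55% of all tested genes.

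Of 10 genes that handle histamine or receive it, 8 were tested and none passed by edgeR. HNMT, which methylates histamine and is its main route of breakdown in the brain, was at 12.3 and 13.8 CPM in Short, 11.3 and 14.9 CPM in Long, and 10.2 and 9.05 CPM in THX pools. Both THX pools lay below the other 4 (log2 difference of THX minus Long −0.44, SE 0.167, adjusted p = 0.490 by edgeR). AOC1, the diamine oxidase that degrades histamine outside cells, had a log2 difference of −3.04 (SE 0.879) that rests on 0.232 and 0.865 CPM in Long against 0.0528 and 0.0753 CPM in THX pools. Like MS4A2, it reached the filter only through the 2 Long pools, where it was highest, so this difference is given as a description with no test. The receptors HRH1 and HRH2 were below 0.5 CPM in all pools, and THX minus Long was 1.08 for HRH1 and −0.89 for HRH2 on the log2 scale (adjusted p = 0.657 and 0.776 by edgeR). SLC18A2, which loads histamine into vesicles, had at most 8 counts in a pool and was not tested.

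Among 11 tested growth and recruitment factors of mast cells, IL33 had the lowest p. This alarmin of stromal and endothelial cells, which activates mast cells, was at 6.55 and 7.15 CPM in Short, 7.74 and 8.69 CPM in Long, and 4.22 and 4.26 CPM in THX pools. Both THX pools lay below the other 4, and the log2 difference of THX minus Long was −0.95 (SE 0.152), which missed the threshold by edgeR (adjusted p = 0.0921). IL1RL1, its receptor on mast cells, was at −0.55 (SE 0.442, adjusted p = 0.841). IL4R, the interleukin-4 receptor, was at −0.37 (adjusted p = 0.506). The list's median was −0.04.

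The 11 tested GATA factors and their partners had a median log2 difference of −0.01 in THX against Long pools. LMO2, a bridging protein that works with GATA2 in blood and endothelial cells, was at 47.6 and 57.8 CPM in Short, 57.2 and 64.5 CPM in Long, and 71.3 and 78.1 CPM in THX pools. Its THX pools lay above the other 4, without passing (log2 difference of THX minus Long 0.30 and of THX minus Short 0.50, adjusted p = 0.516 and 0.0925 by edgeR). GATA1, the other GATA factor of mast cells, had 8 counts in Long pool 1, at most 2 in each other pool, and was not tested.

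Over these 7 lists, 94 different genes were tested and edgeR called 0 of them in each of the 3 comparisons, beside 0.283%, 0% and 0.916% of all tested genes in THX against Long, Long against Short and THX against Short. At an unadjusted p below 0.05 there were 14, 13 and 19, or 14.9%, 13.8% and 20.2%, beside 9.08%, 13.8% and 22.6% of all tested genes. The counts in THX against Long and in Long against Short include AOC1, which reached the filter only through the Long pools. These counts are therefore a description and are not read against the background. DESeq2 called 1 (IL33), 0 and 9 of the 94, or 1.06%, 0% and 9.57%, beside 2.44%, 0.877% and 9.55% of the same tested genes. The 9 were CSF2RB, SHC1, PTPN11, SH2B2, PDGFRA, ITPR1, PRKCB, IL33 and LMO2. By limma-voom 0, 0 and 0 were called, beside 0.25%, 0% and 0.977% of all tested genes.

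Markers of other cell types that can carry KIT or its ligand were summed in the same pools. The 10 melanocyte markers reached 117 to 133 CPM in Short, 114 to 122 CPM in Long and 127 to 142 CPM in THX pools, with MITF and OCA2, a gene of melanosomes, as its main parts. The pigment enzyme genes DCT and TYR were at 0 in all pools and in 5 of 6 pools. SLC45A2, a melanosome transporter, had a log2 difference of THX minus Long of −0.84 and TYRP1, a pigment enzyme, of 0.99 (adjusted p = 0.294 and 0.473 by edgeR). Melanocyte markers thus did not share a direction, with 3 of 6 tested below 0.

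Among markers of the epithelium, HTR2C, a serotonin receptor, had the same order of groups as KIT, at 70.4 and 69.4 CPM in Short, 44.4 and 44.1 CPM in Long, and 27.2 and 26.1 CPM in THX pools. The lists were chosen with earlier results of these data known, and genes that passed were then named, so their p-values are descriptive. HTR2C was lower in THX against Long (log2 difference −0.73, adjusted p = 0.0203 by edgeR) and in THX against Short (−1.39, adjusted p = 0.00168). The first call was lost in each of the 6 fits that omitted a pool (adjusted p from 0.0509 to 0.189), and the second was kept in all 6. KL, which encodes klotho, was at 1278 and 1098 CPM in Short, 893 and 978 CPM in Long, and 715 and 608 CPM in THX pools, again in that order. It fell in THX against Short (log2 difference −0.85, adjusted p = 0.0330 by edgeR), a call made in 1 of those 6 fits, the one without THX pool 1. IGFBP2, a binding protein of insulin-like growth factors, lay in the reverse order, at 1246 and 1334 CPM in Short, 1731 and 1726 CPM in Long, and 2321 and 2889 CPM in THX pools. It rose in THX against Short (log2 difference 1.01, adjusted p = 0.0237 by edgeR), a call made in 2 of the 6, those that omitted a THX pool. The summed level of the epithelial list, given above and with TTR foremost, had the reverse order of KIT. The 13 genes taken singly had no such shared order. In THX against Long 7 were above and 6 below 0, with a median log2 difference of 0.01. In THX against Short 5 were above and 8 below 0, with a median of −0.04. The part of the epithelium in the KIT difference was not tested.

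Several marker sums were lower, like KIT, in both THX pools than in both Long pools. That of the 9 fibroblast markers ran from 1142 to 1368 CPM in Short, 1289 to 1364 CPM in Long and 884 to 1054 CPM in THX pools. Of 8 tested, 7 were below 0 in THX against Long with a median log2 difference of −0.54. LUM, a collagen-binding proteoglycan likewise named because it passed, was lower (log2 difference −0.74, adjusted p = 0.0314 by edgeR). LUM passed in 0 of the 6 fits that each left out a pool, at log2 differences of −0.81 to −0.66 (adjusted p from 0.0563 to 0.256). Short and Long pools overlapped in this sum, where those of KIT did not. The part of fibroblasts in the KIT difference was not tested.

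Mural cell markers ran from 1538 to 1809 CPM in Short, 1507 to 1551 CPM in Long and 1301 to 1466 CPM in THX pools. Macrophage markers ran from 213 to 252 CPM in Short, 267 to 282 CPM in Long and 224 to 240 CPM in THX pools, with all 9 tested below 0 in THX against Long (median log2 difference −0.32) and none past the test of edgeR. Lymphocyte markers summed to 77.7 and 86.7 CPM in Short, 58.9 and 133 CPM in Long, and 46.3 and 108 CPM in THX pools, a spread that comes from JCHAIN, a plasma cell gene, at 12.3 and 88.2 CPM in Long and 10.9 and 68.3 CPM in THX pools. The other 12 summed to 43.7 and 49.9 CPM in Short, 46.6 and 45.2 CPM in Long, and 35.4 and 40.0 CPM in THX pools, a sum without JCHAIN that was chosen after its values were seen. Of all 13, 12 were below 0 in THX against Long (median log2 difference −0.33) and none passed by edgeR. Neutrophil markers were at 14.3 to 21.6 CPM in all pools. The mural, macrophage and dendritic cell sums, and that of the 12 lymphocyte markers, were lower in both THX pools than in both Long pools, and their part in the results was not tested.

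Among the genes whose pattern over the 6 pools was most like that of KIT were KDM6B, WNT5A and ARHGEF10L, with Pearson r of log2 CPM of 0.996, 0.993 and 0.992. They were among the 5 highest of 12064 genes with a symbol and at least 2 CPM, of which 152 had an r above 0.95, and 6 pools in 3 groups make high values common. KDM6B, a histone demethylase, was at 76.6 and 73.7 CPM in Short, 67.6 and 65.1 CPM in Long, and 54.6 and 49.9 CPM in THX pools. It kept the order of KIT in every pool, with smaller steps. For MS4A2 the highest r were those of PARD6G (0.987), ACY1 (0.980), CD86 (0.978), BRSK2 (0.976) and ASB11 (0.976), and they rest on 2 to 16 counts of MS4A2 in a pool.

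The KIT differences were recomputed under 14 alternatives of scaling, filter, tool, fit and pools. The log2 difference of THX minus Long ran from −1.81 without THX pool 1 to −1.25 without THX pool 2. That of THX minus Short ran from −2.36 to −1.80, without the same pools. Both differences moved most with the omission of a THX pool, and both THX pools lay apart from the others on the principal components. Each THX pool alone was lower in KIT than every Long or Short pool.

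**Figure D5:**
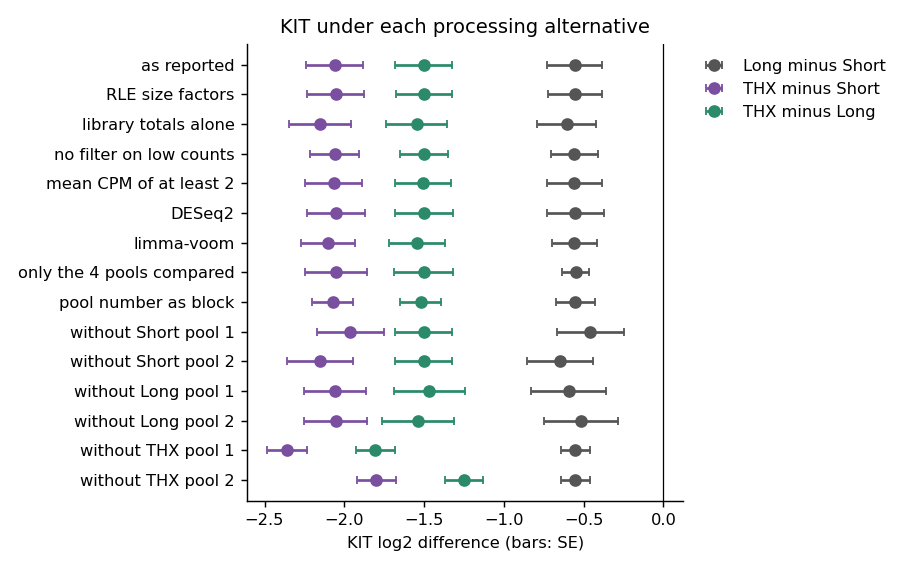
Log2 difference of KIT in the 3 comparisons under the reported processing and each of 14 alternatives; points are fitted differences and bars their SE. All points lie below 0, and the widest shifts are those without THX pool 1 (−1.81 and −2.36) and without THX pool 2 (−1.25 and −1.80).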

How the data were processed

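The authors deposited whole-number counts for each gene, without normalisation, for 6 pools of 3 to 4 ewes. The submitters' processing notes name TopHat2 2.1.1 and featureCounts 2.0.0, and also SAMtools 1.9, bcl2fastq 2.20, MultiQC 1.9 and FastQC 0.11.8. Libraries came from a stranded mRNA kit per the labels' protocols. The sources used here do not give the genome build, annotation or strand setting, so overlapping and antisense genes carry that uncertainty.

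Of 33609 identifiers, 28100 were in a RefSeq table, used for names and gene order alone. In R 4.3.3, edgeR 4.0.16 removed genes with low counts (default filter for 3 groups, near 10 counts at the median depth, or 0.176 CPM, in 2 pools), applied TMM factors and fitted a quasi-likelihood model to all 6 pools (3 residual and 3.96 prior degrees of freedom). Tests are two-sided, adjusted by Benjamini-Hochberg over the 18019 genes, with a threshold of 0.05. The SE of an edgeR log2 difference was derived as its absolute value divided by the square root of the F statistic. Ratios of low counts have exact binomial intervals at the 95% level, which cover counting error and not the spread between pools. DESeq2 1.42.0 and limma 3.58.1 were alternatives. The procedure was also run on simulated data, and no result given here rests on that run. Likeness used Pearson r of log2 CPM with a prior count of 2. The members, lists, tests and alternatives were chosen with earlier results of these data known. From each list, up to 4 tested genes with the lowest p in THX against Long were named where described, with any gene that passed. Some genes that the rules for naming take are not reported here. FCER1G, IL1RL1, TPSB2, MITF, the neighbours of KIT and the genes at or near 0 were named for their roles or position, and JCHAIN after its values were seen. Python 3.11.15 with matplotlib 3.10.9 drew the figures.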

Additional observations from a re-analysis of the deposited data

How the results depend on the processing

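The number of genes called in THX against Long pools was 51, and became 204 with no filter, 440 by DESeq2, 22 with only the 4 pools compared, and 2 to 37 when 1 pool was left out. In Long against Short it was 0, and became 158 by DESeq2 and 0 to 4 with 1 pool left out. In THX against Short it was 165 (57 higher, 108 lower), and became 259 (49 higher, 210 lower) with library totals alone, 908 with no filter, 1721 by DESeq2, 11 with only the 4 pools compared, 392 with the pool number as a replicate block, and 10 to 1087 with 1 pool left out. Library totals alone moved the median log2 difference of all genes in that comparison from −0.01 to −0.11. Same-numbered pools did not deviate together (correlations of −0.06, 0.21 and 0.07), so the number was not taken as a pairing. The block left 48 genes called in THX against Long and 0 in Long against Short.

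KIT kept its direction in each comparison under all 14 alternatives, and MS4A2 under each that tested it. The pools of both genes did not overlap between groups, so leaving out a pool could hardly reverse these signs. Both genes were also chosen with their THX differences known, so nothing is read from the kept direction. Reversals were seen in members with differences near 0 or few counts. FCER1A in Long against Short went from −0.01 to 0.0017 with only the 4 pools, to 0.040 with the replicate block, and to as much as 0.55 with 1 pool left out (range −0.94 to 0.55). FCER1A ranged from −2.11 to 0.31 in THX against Long and from −2.11 to 0.065 in THX against Short with 1 pool left out. GATA2 in THX against Short went from 0.02 to −0.081 with library totals alone and ranged from −0.13 to 0.18 with 1 pool left out, and from −0.022 to 0.29 in Long against Short. KITLG in THX against Long ranged from −0.48 to 0.26. The causes were not tested. With no filter HDC and CPA3 entered the fit, but they have no value in the main fit to compare. Depth limits HDC, CPA3, MS4A2 and FCER1A, with 10 to 126 counts in all 6 pools.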
